A study of Mus musculus with 16 samples.

Results

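The genes described here are 33 markers of endothelial cells, the cells that line blood vessels, other than the receptors for VEGF, and they were followed in glomeruli of the embryonic mouse kidney. They were chosen by name, with earlier results of these data known. Of the 33, 3 are enriched in the endothelium of the glomerulus (Ehd3, Gata5 and Pi16) and 30 are found in endothelium of many organs. Of the 33 genes, 32 had a transcript cluster (the array's unit for a gene) that carried that gene symbol alone, out of 20707 such clusters and 93623 clusters in all. Each of the 32 had 1 such cluster. The cluster of the remaining gene, Rasip1, was shared between several symbols, so Rasip1 was read only from its probe sets (the array's unit for about 1 exon). The mutants are the wt1(+KTS) mutant, which the labels title Frasier, with 4 embryos; the wild type has 4 embryos. All 8 embryos were at E18.5, shortly before birth, on a mixed C57Bl6 and DBA2 background, and none had been treated. Zygosity, litter and sex are not given in the labels. A letter closes each sample code, has no stated meaning and never occurs in both genotypes, so genotype and whatever that letter marks cannot be told apart.

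The glomerulus is a tuft of capillaries wrapped by podocytes, epithelial cells that depend on the transcription factor WT1. Its endothelial cells are flat, pierced by fenestrae and covered by a glycocalyx, and they rely on VEGF that podocytes secrete. Junction proteins such as VE-cadherin (Cdh5) and PECAM1 hold endothelial cells together, ETS and SOX transcription factors set their identity, and endoglin with its receptor Acvrl1 reads BMP ligands carried in blood. WT1 exists with or without a KTS insert of 3 amino acids, and the form with the insert is the one reduced in Frasier syndrome. The comparison addresses how the endothelial side of the glomerulus differs when the KTS form is altered.

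All values below are log2 signals of the deposited tables, and a difference is always the mean of the Frasier embryos minus the mean of the wild-type embryos. Negative differences are lower in Frasier. Correlations between arrays over all clusters were 0.904 to 0.960, apart from those of wild-type replicate 4, which were 0.869 to 0.918. Wt1 itself, in the podocyte list, differed by −0.11 ± 0.11 (SE, 95% interval −0.35 to 0.14), and its cluster does not resolve the KTS insert, so it checks no genotype label. Levels of different genes are not compared with each other, because each is read by its own probes. In bulk glomeruli, fewer endothelial cells and less RNA per endothelial cell cannot be told apart.

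Endothelial genes had lower signal in Frasier glomeruli as a rule, by a modest amount, and Ehd3 had the lowest difference of the 32. Of the 32 measured members 28 had a mean below the wild type, and the median difference was −0.30, against −0.03 over all clusters and 0.03 over clusters with 1 symbol. A mean below the wild type was found in 55.4% of all clusters and in 44.3% of those with 1 symbol. With limma and Benjamini-Hochberg adjustment over all 93623 clusters, 2 members passed the threshold of 0.05, Ehd3 and Fabp4, both lower, where 0.49% of all clusters and 0.594% of clusters with 1 symbol were called lower (0.336% and 0.826% were called higher). That background itself is unsteady: limma called 774 clusters in both directions (0.827%). Without Frasier replicates 1 to 4 it called 393, 315, 285 and 382. Without wild-type replicates 1 to 4 it called 324, 268, 524 and 758. The 2 members called were 2 in each of these runs. In simulated tables with the spread of these clusters, limma called 2% of 1.5-fold changes and 42% of 2-fold changes. These rates were not taken from the members, which lay at percentiles 69.9 (Pi16) to 99.7 (Cd93) of mean signal among all clusters. The rate for clusters as bright as the members was not tested. A gene that did not pass may still differ.

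For 15 members all 4 Frasier values lay below all 4 wild-type values, 46.9% of the 32 measured, and this was so for 4.74% of all clusters and 5.56% of clusters with 1 symbol. For 2 members, Icam1 and Ehd4, all Frasier values lay above, as in 4.79% of all clusters and 11.2% of those with 1 symbol. An unadjusted p under 0.05 was found for 19 of 32 members (59.4%), against 14.3% of all clusters and 16.6% of clusters with 1 symbol. Wild-type replicate 2 was the lowest wild-type array for 22 of the 32 members, and without it 22 members had no overlap on the lower side. Without wild-type replicate 4 the count stayed at 15. After each array was centred on its median it was 10.

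**Figure D1:**
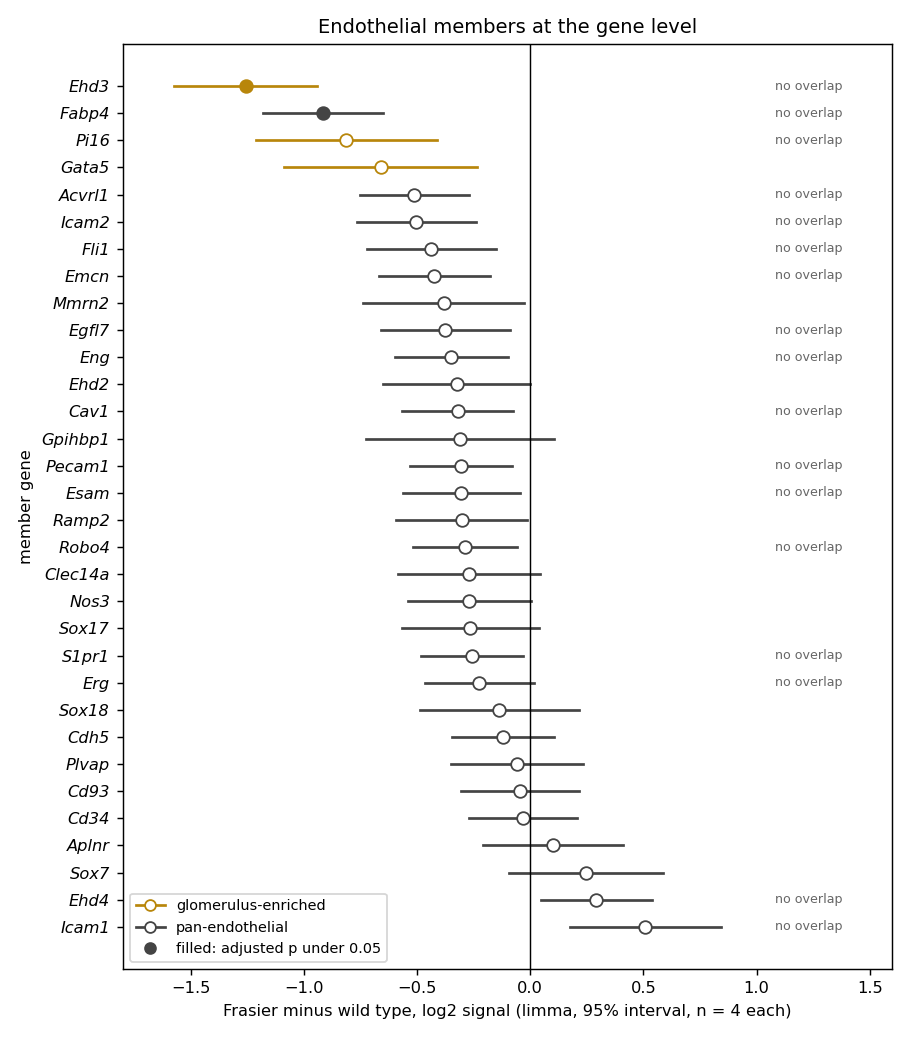
Difference of each of 32 members between Frasier and wild type on the log2 scale (x axis), with the 95% interval from limma (n = 4 embryos each); filled points passed an adjusted p of 0.05, and "no overlap" marks genes for which the 2 sets of 4 values are fully separated. Ehd3 (−1.26) and Fabp4 (−0.92) are the called members, 28 of 32 points lie below 0, and Icam1 (0.51) is the highest.

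The glomerulus-enriched genes had the lowest differences together with Fabp4. Ehd3 encodes an ATPase that shapes endocytic recycling membranes and in the mouse kidney marks the glomerular endothelium. Its cluster, 6852181, had log2 signals of 8.39, 7.95, 8.19 and 8.18 in Frasier embryos, against 9.28, 9.26, 9.63 and 9.56 in wild-type embryos. The genotypes were separated by 0.87 between the highest Frasier and the lowest wild-type array, a gap wider than the spread inside either genotype. Ehd3 fell by 1.26 ± 0.14 (SE, 95% interval −1.57 to −0.94), a signal 2.39-fold lower in Frasier (limma adjusted p = 0.00571), and it still passed without any single array (adjusted p 0.0123 to 0.0270).

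Pi16, a secreted peptidase inhibitor, had values of 6.38, 6.15, 6.00 and 6.41 in Frasier embryos and 6.97, 6.63, 7.23 and 7.36 in wild-type embryos. All Frasier values were below all wild-type values, and the wild type spread over a wider range. The difference of −0.81 ± 0.18 (95% interval −1.21 to −0.41) missed the threshold over all clusters (limma adjusted p = 0.0794; exact permutation p = 0.0286, two-sided, the smallest that 4 against 4 allows).

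Gata5, a zinc finger transcription factor of endocardium and endothelium, had values of 7.28, 6.74, 6.99 and 6.82 in Frasier embryos and 7.70, 7.15, 7.68 and 7.95 in wild-type embryos. The genotypes overlapped because of wild-type replicate 2, whose value lay below that of Frasier replicate 1. The difference was −0.66 ± 0.19 (95% interval −1.09 to −0.24) and missed the threshold (limma adjusted p = 0.163; exact permutation p = 0.0571). The mean of these 3 genes was 6.95 to 7.35 in Frasier embryos and 7.68 to 8.29 in wild-type embryos, with no overlap.

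Promoter sequence was set beside these values because many members share a direction and because ETS and SOX factors drive endothelial genes. RefSeq windows (build GRCm38.p6) were at hand for 15 of the 33 members. The 250 bases before the start site of the glomerulus-enriched genes and of the 3 pan-endothelial members of smallest p with a window follow, 5′ to 3′ on the gene's strand, in lower case. Capitals mark AGGAAG (a core bound by ETS factors), ACAATG and ACAAAG (cores bound by SOX factors) and AGATAA (a core bound by GATA factors) on either strand; no matches overlapped. The windows are chr17:73804591-73804840 for Ehd3 (plus strand), chr2:180334680-180334929 for Gata5 (minus strand), chr17:29318632-29318881 for Pi16 (plus strand), chr3:137340828-137341077 for Emcn (plus strand), chr9:21015690-21015939 for Icam1 (plus strand) and chr2:32646345-32646594 for Eng (plus strand).
Ehd3: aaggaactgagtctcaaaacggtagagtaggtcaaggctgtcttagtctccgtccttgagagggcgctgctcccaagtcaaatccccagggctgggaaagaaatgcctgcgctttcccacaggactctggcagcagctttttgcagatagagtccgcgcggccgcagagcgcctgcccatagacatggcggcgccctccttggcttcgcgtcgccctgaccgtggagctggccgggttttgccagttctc
Gata5: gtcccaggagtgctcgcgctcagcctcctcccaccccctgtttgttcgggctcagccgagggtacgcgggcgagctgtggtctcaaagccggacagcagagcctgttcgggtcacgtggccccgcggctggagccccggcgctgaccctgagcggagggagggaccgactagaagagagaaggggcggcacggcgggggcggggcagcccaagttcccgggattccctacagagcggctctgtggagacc
Pi16: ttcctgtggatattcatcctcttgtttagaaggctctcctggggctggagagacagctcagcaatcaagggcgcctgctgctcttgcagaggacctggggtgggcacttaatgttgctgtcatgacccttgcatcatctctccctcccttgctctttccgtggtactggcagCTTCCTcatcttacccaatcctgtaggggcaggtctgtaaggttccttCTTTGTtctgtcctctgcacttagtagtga
Emcn: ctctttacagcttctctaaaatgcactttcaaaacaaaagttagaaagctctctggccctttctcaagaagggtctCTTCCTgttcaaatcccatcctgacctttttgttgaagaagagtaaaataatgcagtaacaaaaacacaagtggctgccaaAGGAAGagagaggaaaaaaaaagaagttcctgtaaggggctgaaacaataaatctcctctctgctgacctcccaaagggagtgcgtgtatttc
Icam1: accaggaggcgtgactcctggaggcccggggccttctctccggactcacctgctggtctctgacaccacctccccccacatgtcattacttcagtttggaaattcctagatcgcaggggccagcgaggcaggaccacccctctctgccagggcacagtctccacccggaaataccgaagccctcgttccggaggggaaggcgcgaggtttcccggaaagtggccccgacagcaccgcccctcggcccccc
Eng: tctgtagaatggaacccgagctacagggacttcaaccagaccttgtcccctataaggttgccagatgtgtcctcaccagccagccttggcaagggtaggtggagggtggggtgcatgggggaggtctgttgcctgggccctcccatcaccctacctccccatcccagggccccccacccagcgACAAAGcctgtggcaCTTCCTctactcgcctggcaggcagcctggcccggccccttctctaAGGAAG

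The windows of Ehd3, Gata5 and Icam1 held no match to any of these motifs. Pi16 and Eng held both an ETS and a SOX core, and Emcn held 2 ETS cores. Over the 20 windows of the 15 members, AGGAAG was present in 10 of them, in 9 members, against 29.5% of all 32851 windows of the same length. Egfl7 and Erg had 3 windows each and Cav1 had 2, so the windows are not independent, and enrichment was not tested. ACAATG was present in 1 and AGATAA in 1, against 10.7% and 9.99% of all windows, and ACAAAG in 3, against 16.5%.

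Of the lipid handling genes, Fabp4 changed. It encodes a fatty acid binding protein of capillary endothelium, adipocytes and macrophages. Its values were 8.39, 8.37, 8.69 and 8.35 in Frasier embryos and 9.40, 9.27, 9.45 and 9.33 in wild-type embryos. Frasier replicate 3 stood above its group and still 0.58 below the lowest wild-type array. Fabp4 fell by 0.92 ± 0.12 (SE, 95% interval −1.18 to −0.65), 1.89-fold lower in Frasier (limma adjusted p = 0.0109; 0.0201 to 0.0472 with each array left out in turn). With the replicate number as a block the call was lost (limma adjusted p = 0.0519). Gpihbp1, which carries lipoprotein lipase to the capillary lumen, differed by −0.31 ± 0.19, with means of 7.76 ± 0.25 in Frasier and 8.07 ± 0.31 in wild-type embryos (SD, n = 4 each), and the genotypes overlapped.

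Among receptors and the enzymes they act on, the BMP receptor pair lay lower without overlap, and neither gene passed the test. Acvrl1, a receptor kinase of the TGF-beta family, had values of 7.06, 7.31, 7.29 and 7.23 in Frasier embryos and 7.68, 7.70, 7.81 and 7.76 in wild-type embryos. The gap of 0.37 between the genotypes exceeded the range inside each, and the difference of −0.51 ± 0.11 had the third smallest p of the members without passing (limma adjusted p = 0.0701). Its co-receptor endoglin, encoded by Eng, had values of 9.21, 9.22, 9.33 and 9.24 in Frasier embryos and 9.62, 9.43, 9.59 and 9.76 in wild-type embryos. These too did not overlap, with a difference of −0.35 ± 0.11 (limma adjusted p = 0.206).

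S1pr1, a receptor for the lipid sphingosine phosphate that tightens junctions, had values of 8.12, 7.97, 8.03 and 8.14 in Frasier embryos and 8.31, 8.34, 8.31 and 8.34 in wild-type embryos. The wild-type arrays lay close together, all above Frasier, and the difference was −0.26 ± 0.10 (limma adjusted p = 0.291). Ramp2, the partner that turns the calcitonin receptor-like receptor toward adrenomedullin, differed by −0.30 ± 0.13, and Nos3, the endothelial nitric oxide synthase, by −0.27 ± 0.12; for both the genotypes overlapped. The apelin receptor gene Aplnr differed by 0.10 ± 0.14, with 10.45 ± 0.16 in Frasier and 10.35 ± 0.19 in wild-type embryos (SD, n = 4 each). Its 95% interval, −0.21 to 0.41, does not reach the median of the members. Rasip1, an effector of Rap GTPases needed for vessel lumens, had a mean over its 17 probe sets of 7.73 ± 0.17 in Frasier and 7.93 ± 0.04 in wild-type embryos (SD, n = 4 each), a difference of −0.20 ± 0.10 (limma adjusted p = 0.205 over genes summarised from probe sets).

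None of the 5 junction and adhesion genes passed the test (limma adjusted p 0.0942 to 0.627), and 4 had an unadjusted p under 0.05. Pecam1, an adhesion protein of endothelium, platelets and leukocytes, had values of 8.82, 8.81, 8.89 and 8.88 in Frasier embryos and 9.24, 9.06, 9.19 and 9.14 in wild-type embryos. The groups did not overlap, and the difference was −0.31 ± 0.10 (limma adjusted p = 0.218). Cdh5, the cadherin of endothelial adherens junctions, had 9.02, 8.98, 8.998 and 9.08 in Frasier embryos and 9.20, 9.06, 9.13 and 9.16 in wild-type embryos. Frasier replicate 4 and wild-type replicate 2 overlapped, and the difference was −0.12 ± 0.10 (95% interval −0.34 to 0.10).

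Esam, a junctional adhesion molecule, had values of 9.01, 8.91, 9.07 and 9.02 in Frasier embryos and 9.43, 9.13, 9.43 and 9.23 in wild-type embryos. The gap was 0.06, set by wild-type replicate 2, and the difference was −0.30 ± 0.12 (limma adjusted p = 0.276). Icam2, a constitutive ligand of leukocyte integrins, had values of 6.83, 6.53, 6.67 and 6.66 in Frasier embryos and 7.29, 7.01, 7.20 and 7.20 in wild-type embryos, a difference of −0.50 ± 0.12 with no overlap (limma adjusted p = 0.0942). Its relative Icam1 is induced by cytokines in endothelium and other cells. Icam1 had values of 8.04, 8.09, 8.02 and 8.37 in Frasier embryos and 7.84, 7.65, 7.71 and 7.29 in wild-type embryos. The lowest Frasier array lay 0.18 above the highest wild-type array, and the difference was 0.51 ± 0.15, or 1.42-fold (95% interval 0.18 to 0.84; limma adjusted p = 0.168). Genes that answer to TNF and interferon lay higher as well. All 9 measured genes of that list had a mean above the wild type, while 44.3% of clusters with 1 symbol had a mean below it. The list, drawn up with earlier results known, averaged 7.08 to 7.42 in Frasier embryos and 6.44 to 6.70 in wild-type embryos. Limma called 1 gene, where 0.826% of clusters with 1 symbol were called higher. That gene, the chemokine Cxcl10, rose by 2.52 ± 0.18 (limma adjusted p = 0.000873). The part of that response in the Icam1 value was not tested.

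**Figure D2:**
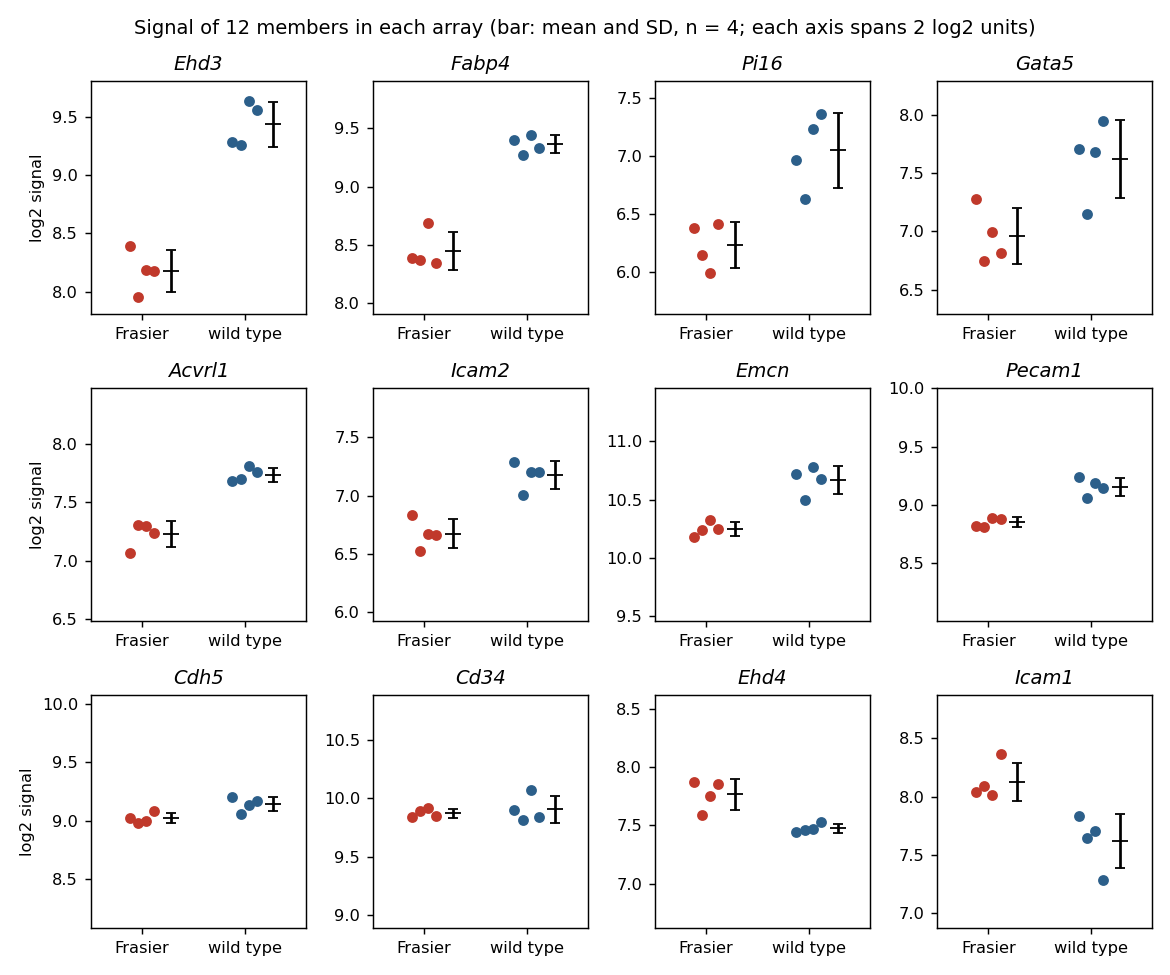
Log2 signal (y axis) of 12 members in each of 4 Frasier and 4 wild-type arrays; bars give the mean and SD (n = 4), and every y axis spans 2 log2 units. Ehd3 and Fabp4 show the widest gaps, Gata5 overlaps through 1 low wild-type array (7.15), Cdh5 and Cd34 lie close together, and Ehd4 and Icam1 are higher in Frasier.

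Surface glycoproteins ranged from no visible difference to a clear separation. Emcn encodes endomucin, a sialomucin of capillaries and veins. It had values of 10.18, 10.24, 10.32 and 10.24 in Frasier embryos and 10.72, 10.50, 10.78 and 10.68 in wild-type embryos. The groups did not overlap, and the difference was −0.42 ± 0.11 (limma adjusted p = 0.124). Robo4, a guidance receptor that stabilises vessels, had values of 7.25, 7.17, 7.30 and 7.22 in Frasier embryos and 7.4998, 7.48, 7.63 and 7.46 in wild-type embryos. These were separated by 0.17, with a difference of −0.29 ± 0.10 (limma adjusted p = 0.248).

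The C-type lectin receptors and their matrix ligand gave overlapping values. Mmrn2, a matrix glycoprotein that binds Clec14a and Cd93, differed by −0.38 ± 0.16, and Clec14a by −0.27 ± 0.14. Cd93 had 10.83 ± 0.05 in Frasier and 10.88 ± 0.16 in wild-type embryos (SD, n = 4 each), a difference of −0.05 ± 0.12 (95% interval −0.31 to 0.21). The sialomucin Cd34, shared with blood stem cells and some stroma, had values of 9.84, 9.89, 9.92 and 9.84 in Frasier embryos and 9.90, 9.81, 10.07 and 9.84 in wild-type embryos. Its difference of −0.03 ± 0.11 (95% interval −0.27 to 0.21) and that of Cd93 turned positive after a further quantile normalization. The median of the members, −0.30, lies outside the interval of Cd34 and at the edge of that of Cd93.

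None of the 4 genes of caveolae, fenestrae and endocytosis passed the test (limma adjusted p 0.228 to 0.872), and 2 had an unadjusted p under 0.05. Cav1, the caveolar coat protein, had values of 8.64, 8.56, 8.52 and 8.53 in Frasier embryos and 8.95, 8.73, 8.84 and 9.01 in wild-type embryos. The wild type was the more scattered group, no values overlapped, and the difference was −0.32 ± 0.11 (limma adjusted p = 0.228). Plvap, which forms the diaphragms of fenestrae, differed by −0.06 ± 0.13 (95% interval −0.35 to 0.23). Glomerular capillaries of the adult largely lack these diaphragms, while peritubular capillaries keep them. Ehd2, a paralog of Ehd3 that sits at caveolae, differed by −0.32 ± 0.14, and the genotypes overlapped. Ehd4, another paralog, had values of 7.87, 7.59, 7.75 and 7.86 in Frasier embryos and 7.44, 7.46, 7.47 and 7.53 in wild-type embryos. All Frasier values lay above all wild-type values, although the gap was 0.06, and the difference was 0.29 ± 0.11 (limma adjusted p = 0.272). The remaining paralog Ehd1, not a member, differed by −0.13 ± 0.12. Of the 4 EHD genes, then, 1 passed the test.

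The secreted factor Egfl7, an endothelial matrix protein that guides vessel tube formation, had values of 8.22, 8.13, 8.30 and 8.07 in Frasier embryos and 8.81, 8.46, 8.55 and 8.39 in wild-type embryos. The groups did not overlap, by a gap of 0.10, and the difference was −0.37 ± 0.13 (limma adjusted p = 0.225).

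None of the 5 transcription factors that are not glomerulus-enriched passed the test; 1 had an unadjusted p under 0.05. Fli1, an ETS factor of endothelium and blood, had values of 7.77, 7.73, 7.83 and 7.58 in Frasier embryos and 8.22, 8.16, 8.36 and 7.92 in wild-type embryos. Its genotypes did not overlap, and the difference was −0.44 ± 0.13 (limma adjusted p = 0.170). The ETS factor Erg had values of 6.93, 6.84, 6.71 and 6.87 in Frasier embryos and 7.14, 6.97, 7.14 and 7.01 in wild-type embryos. These did not overlap either, but the gap was 0.03 and the difference −0.22 ± 0.11 (limma adjusted p = 0.386). The SOX genes of subgroup F, which act in arterial and lymphatic development, did not share a direction: Sox17 differed by −0.26 ± 0.14, Sox18 by −0.14 ± 0.16 and Sox7 by 0.25 ± 0.15, and the genotypes overlapped for each.

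The next question was whether the glomerulus-enriched genes differed more between genotypes than the junction genes Cdh5 and Pecam1 of the same arrays. These stand for themselves and not for the 29 measured pan-endothelial members, whose median difference was −0.29. Cdh5 (−0.12) was closer to 0 than that median, and pan-endothelial Fabp4 (−0.92) lay below Pi16 and Gata5. For this the log2 signal of one gene was subtracted from that of another within each array, which cancels anything that scales both genes alike. It does not cancel a change in the share of glomerular among all endothelial cells, and that share was not tested. The subtracted values were compared between genotypes by a two-sided exact permutation test, with Benjamini-Hochberg adjustment over 8 such pairs. Ehd3 minus Cdh5 was −0.63, −1.03, −0.81 and −0.90 in Frasier embryos and 0.08, 0.20, 0.50 and 0.40 in wild-type embryos. Ehd3 thus stood lower in Frasier relative to Cdh5 by 1.14, or 2.20-fold, with no overlap (exact permutation p = 0.0286, adjusted p = 0.0381). Relative to Pecam1 the difference was −0.95, again with no overlap (exact permutation adjusted p = 0.0381).

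Pi16 differed by −0.69 relative to Cdh5 and by −0.51 relative to Pecam1, both with no overlap (exact permutation adjusted p = 0.0381 each). The pair with Pecam1 lost its call when genes were summarised as the mean of their probe sets (difference −0.44, adjusted p = 0.0653). Gata5 differed by −0.54 relative to Cdh5 (exact permutation adjusted p = 0.0653) and by −0.36 relative to Pecam1 (0.114), and neither passed. Against its own paralogs, Ehd3 was lower by a difference of −0.93 relative to Ehd2 and of −1.55 relative to Ehd4 (exact permutation adjusted p = 0.0381 each). Ehd3 minus Ehd4 was 0.52, 0.36, 0.43 and 0.32 in Frasier embryos and 1.84, 1.80, 2.16 and 2.03 in wild-type embryos. RMA compresses dim genes more than bright ones, so the size of these ratios depends on the level of each gene.

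**Figure D3:**
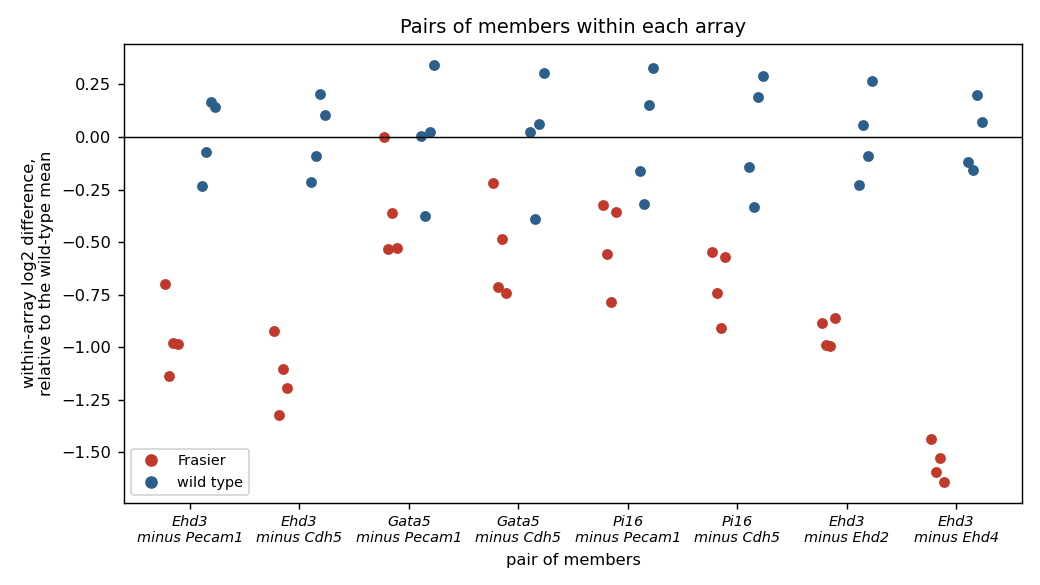
Within-array log2 difference of 8 pairs of members, relative to the mean of the 4 wild-type arrays (y axis), for 4 Frasier and 4 wild-type arrays. The genotypes are apart for Ehd3 and Pi16 pairs (6 pairs, adjusted p = 0.0381 each) and overlap for both Gata5 pairs.

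The exon-level table reads each gene through several probe sets of the same 8 arrays, so it is not an independent measurement, but it shows whether a difference runs along the whole gene. The 33 members had 357 probe sets, from 3 (Aplnr) to 24 (Eng, Nos3 and Robo4). Of these 294 had a mean below the wild type (82.4%), where 48.9% of all probe sets and 39.8% of those with 1 symbol did. Limma called 30 of the 357, 27 lower (7.56%) and 3 higher, in 13 members, against a background of 2.67% of all probe sets called (1.21% lower and 1.46% higher). All Frasier values lay below all wild-type values in 120 of the 357 and above them in 8, against 5.49% and 7.53% of all probe sets. The count of 30 was 21, 17, 18 and 19 without Frasier replicates 1 to 4, and 16, 19, 22 and 22 without wild-type replicates 1 to 4.

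Ehd3 held 10 of the 27 lower calls. Of its 11 probe sets, 10 fell, with differences from −0.81 to −2.10. The remaining one, the dimmest of the 11, had means of 5.66 in Frasier and 5.65 in wild type and differed by 0.0073. Medians of the arrays over all probe sets were 6.76 to 6.88. The largest fall was in probe set 4524403, with 8.58, 7.96, 8.44 and 8.03 in Frasier embryos and 10.22, 9.96, 10.73 and 10.50 in wild-type embryos (difference −2.10, limma adjusted p = 0.00149). Bright probe sets fell too: 4308946 had means of 11.35 ± 0.30 in Frasier and 12.89 ± 0.20 in wild-type embryos (SD, n = 4 each).

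Fabp4 had 3 called probe sets of 8, with differences of −0.90, −0.92 and −1.35, and its other probe sets differed by −0.26 to −0.85. Pi16 had 3 of 9, the largest in probe set 4911848, with 7.95, 7.37, 7.21 and 7.52 in Frasier embryos and 9.30, 8.68, 9.22 and 9.48 in wild-type embryos (difference −1.66, limma adjusted p = 0.00528). Gata5 had none of 8 called, 7 with an unadjusted p under 0.05, and a median over its probe sets of −1.15. Wild-type replicate 2 was the lowest wild-type array in all 8 of them. Summarised as the mean of its probe sets, Gata5 differed by −0.93 ± 0.25 and passed among 18513 genes (limma adjusted p = 0.0399). That setting called far more genes than the main test: 2102 of the 18513, 1546 higher and 556 lower. It called 15 members, with Icam1 and Ehd4 among them on the higher side.

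Other members with called probe sets had 1 or 2 each. On the lower side these were Acvrl1 (2 of 10, to −0.80), Emcn (2 of 15, to −0.90), Fli1 (2 of 11, to −0.61), and Pecam1, Eng, Egfl7, Erg and Rasip1 with 1 each. In Eng the called probe set differed by −1.21 while the median of its 24 probe sets was −0.36, so that probe set departs from the rest of the gene. In Ehd4 the called probe set 4560297 had 7.79, 7.55, 7.04 and 6.90 in Frasier embryos and 5.78, 5.45, 6.17 and 6.12 in wild-type embryos (difference 1.44), against a median over 11 probe sets of 0.34. Icam1 had 2 higher calls of 8 (0.86 and 0.91), and 6 of its probe sets had no overlap. Cdh5 had 13 of 13 probe sets below the wild type, by 0.38 at most, and limma called 0 of them, with 3 at an unadjusted p under 0.05.

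**Figure D4:**
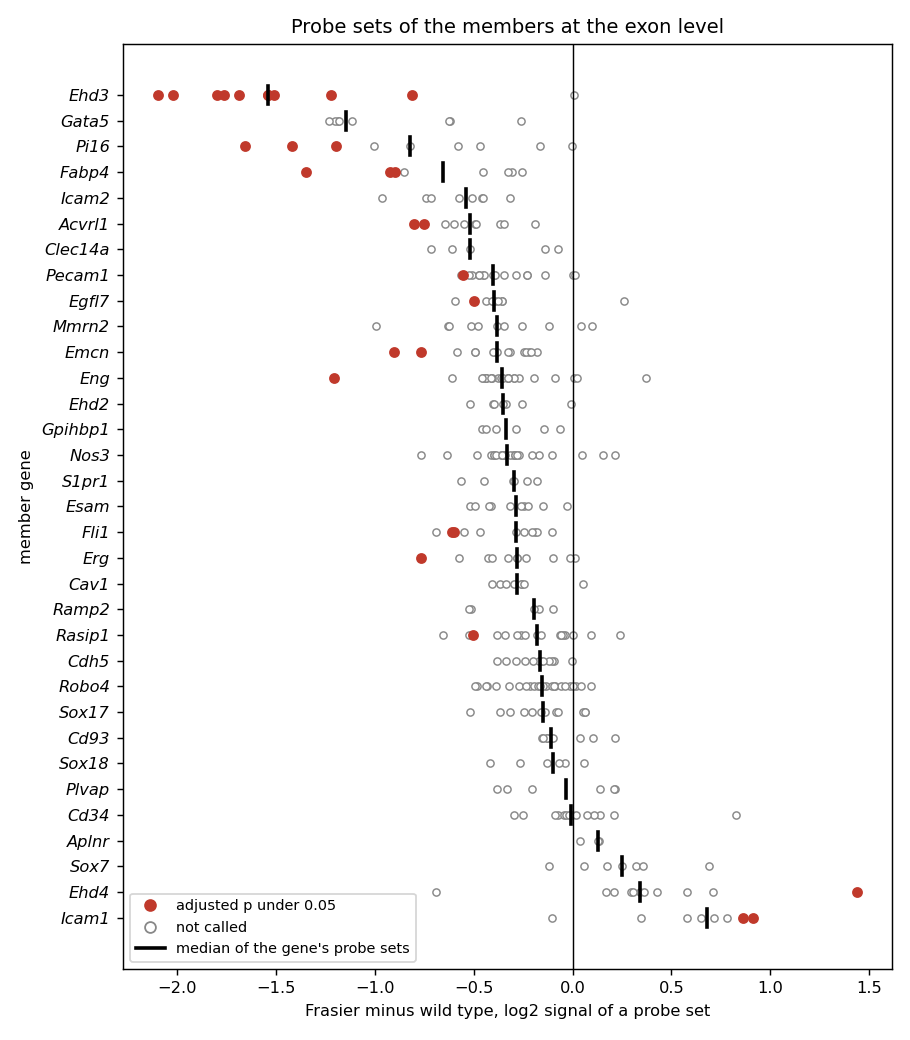
Difference between Frasier and wild type of each of 357 probe sets (x axis, log2) for the 33 members, ordered by the median of the gene's probe sets (black bar); red points passed an adjusted p of 0.05. Ehd3 shows 10 red points from −0.81 to −2.10, and Ehd4 and Icam1 carry the 3 red points above 0.

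Endothelial genes outside the members also lay mostly below the wild type. In a list of 34 further pan-endothelial genes, 32 were measured, and the median was −0.23. A mean below the wild type was found for 29 of them (90.6%), against 44.3% of clusters with 1 symbol. No overlap on the lower side was found for 15 (46.9%), against 5.56% of those clusters. Limma called 0 of the 32, with 11 at an unadjusted p under 0.05 (34.4%, against 16.6% of those clusters). The 4 of smallest p were the VEGF receptor Kdr (−0.61 ± 0.12, limma adjusted p = 0.0530), the adaptor She (−0.64 ± 0.13), Cyyr1 (−0.54 ± 0.11) and the receptor phosphatase Ptprb (−0.46 ± 0.11). This list shares arrays with the members and was drawn up with earlier results known, so it is no independent support.

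Of 8 measured genes reported in glomerular endothelium beside the members, 1 was called, where 0.594% of clusters with 1 symbol were called lower. Mapt, which encodes the microtubule protein tau, fell by 0.74 ± 0.12, with values of 6.77, 6.53, 6.74 and 6.54 in Frasier embryos and 7.29, 7.27, 7.46 and 7.52 in wild-type embryos (limma adjusted p = 0.0254). That call was lost in 7 of the 8 runs without 1 array. Plat, the tissue plasminogen activator, differed by −0.43 ± 0.12 and the T-box factor Tbx3 by −0.38 ± 0.12, both with no overlap, while Lpl differed by 0.25 ± 0.16. The genotypes overlapped for Smad6 (−0.07), Mgp (−0.18), Trpv4 (0.06) and Fbln2 (0.03). No overlap on the lower side was found for 3 of the 8 genes, against 5.56% of clusters with 1 symbol. The median of this list was −0.13, with 5 genes below the wild type and 3 above it.

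Lists of other vessels were closer to no difference: the median was −0.05 over 10 arterial genes and −0.09 over 5 venous and lymphatic genes. Limma called 0 in each, with 2 and 1 at an unadjusted p under 0.05 (20% in each, against 16.6% of clusters with 1 symbol). Gja5, a connexin of arteries and of the glomerular arterioles, differed by −0.73 ± 0.15 (limma adjusted p = 0.0622). Partners of the members (ligands, co-receptors, coat proteins and signal carriers) had a median of 0.05 over 28 measured genes, 12 below and 16 above the wild type. Limma called 0 of them, with 5 at an unadjusted p under 0.05 (17.9%, near the same 16.6%). Cav2, which joins caveolin coats, differed by −0.45 ± 0.11 and the peptide adrenomedullin (Adm) by −0.78 ± 0.21. The adrenomedullin receptor Calcrl differed by −0.16 ± 0.13.

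Markers of other cell types differed in part as well. The podocyte list averaged 8.34 to 8.50 in Frasier embryos and 8.67 to 8.86 in wild-type embryos. Limma called 2 of its 13 genes, both lower (Ptpro and Clic5), where 0.594% of clusters with 1 symbol were called lower. Ptpro passed without any single array, and Clic5 lost its call in 6 of those 8 runs: all but those without Frasier replicate 1 and wild-type replicate 4. The proximal tubule list averaged 8.32 to 8.79 in Frasier embryos and 9.16 to 9.42 in wild-type embryos. Limma called 5 of its 11 genes (Dpep1, Slc13a3, Pdzk1, Slc34a1 and Slc5a2), all lower, against the same 0.594%. Of those 5 calls 2, 2, 1 and 3 remained without Frasier replicates 1 to 4, and 2, 1, 2 and 4 without wild-type replicates 1 to 4; Dpep1 was the one that remained in all 8 runs. The leukocyte list averaged 6.77 to 6.92 in Frasier embryos and 6.93 to 7.11 in wild-type embryos, a gap of under 0.01. Limma called 0 of its 10 genes, and 2 of the 10 were above the wild type. An unadjusted p under 0.05 was found for 2 (20%, against 16.6% of clusters with 1 symbol). Fli1, Pecam1 and Fabp4 are genes that blood cells also use. The mesangial and smooth muscle list (8.34 to 8.58 in Frasier, 8.42 to 8.68 in wild type) and the stromal list (8.48 to 8.94 and 8.56 to 8.75) overlapped between genotypes. The pan-endothelial members themselves averaged 8.20 to 8.28 in Frasier embryos and 8.33 to 8.55 in wild-type embryos. The part of these other cells in the endothelial values was not tested.

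**Figure D5:**
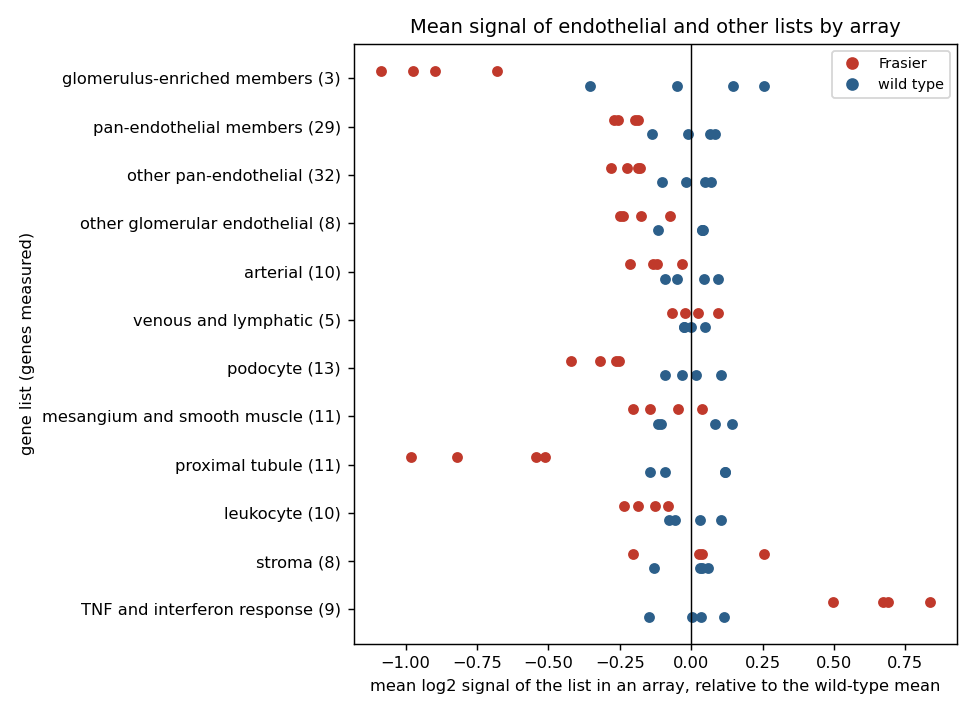
Mean log2 signal of each gene list in each of 4 Frasier and 4 wild-type arrays, relative to the wild-type mean of the list (x axis); the number of genes measured is in brackets. The 3 glomerulus-enriched members, both pan-endothelial lists, the podocyte list and the proximal tubule list are lower in all Frasier arrays, and so, narrowly, is the leukocyte list. The TNF and interferon list is higher in all. The other glomerular endothelial, arterial, venous, mesangial and stromal lists overlap.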

How the data were processed

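The deposited values are log2 signals, which the authors made with RMA (background correction, quantile normalization and summary of probes) in Partek (per the submitters' processing notes, which name build mm9). Versions of these tools were not given in the sources used here. Their log base was inferred from the range. The 16 deposited columns are 2 summaries of 8 arrays, so n was 4 per genotype. Genotypes and replicate numbers came from the labels, gene symbols from the platform annotation, updated through a RefSeq table of GRCm38 for names only. The members and gene lists were chosen with earlier results of these data known; several listed genes were not analysed here.

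Both tables were fitted whole by the lmFit and eBayes functions of limma 3.58.1 under R 4.3.3 (Frasier minus wild type, two-sided), and p-values were adjusted by Benjamini-Hochberg over every row, with a threshold of 0.05. Each member was read from its cluster of highest mean. All 33 members are named. Values per array are given for the glomerulus-enriched members, called members, members without overlap and the 12 of smallest p. In other lists the called genes are named, with values per array for Mapt alone. Exact permutation tests used scipy 1.17.1. Steps were tested on simulated data. Arrays have no read depth: their number limits the precision, and p-values measure spread between embryos. Proteins were not used here.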

Additional observations from a re-analysis of the deposited data

Results flagged for a closer look

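Of 64 groups of 4 values (32 members in each genotype), 1 held a value far from the rest, where chance flags about 1 group in 20. Fabp4 in Frasier replicate 3 was 8.69, against 8.35 to 8.39 in the other 3 Frasier arrays.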

How the results depend on the processing

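Most gene-level results were recomputed under 9 alternatives to normalization, variance model, rows tested and summary. Exon-level counts had 8 alternatives, counts of members without overlap 3 and the within-array pairs only 2. All were also recomputed without each array. The median difference of the members stayed between −0.36 and −0.26 in all of its runs. Ehd3 kept its call throughout (adjusted p 0.000315 to 0.0448). Fabp4 lost it in 1 alternative, the replicate block (adjusted p = 0.0519). The 2 called members became 1 with the replicate block, 5 without dim clusters, 11 over clusters with 1 symbol only and 15 with the mean of probe sets, a setting that changes both the rows tested and the summary. Clusters called numbered 1311 with array weights, 258 with the code letter as a random block, 185 with the replicate block, 1199 without dim clusters, 1408 with 1-symbol clusters, 2102 with the mean of probe sets, and 268 to 758 without 1 array. Probe sets called numbered 16875 with trend and robust options, 15378 with array weights, 2831 with the code letter as a random block, and 3513 to 9913 without 1 array. Member probe sets called numbered 68 with trend and robust options, 14 with the code letter, 53 with 1-symbol probe sets, and 16 to 22 without 1 array. The cause of these changes was not tested.

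Pi16 minus Pecam1 was −0.44 with the mean of probe sets and missed the threshold (adjusted p = 0.0653). Without 1 array the exact test cannot pass (smallest p 0.0571), so it says nothing of stability; the values then ran from −1.03 to −0.89 for Ehd3 minus Pecam1, −1.21 to −1.07 for Ehd3 minus Cdh5, −0.61 to −0.40 for Pi16 minus Pecam1, −0.80 to −0.595 for Pi16 minus Cdh5, −1.01 to −0.84 for Ehd3 minus Ehd2 and −1.60 to −1.48 for Ehd3 minus Ehd4. Signs turned in Cd34 (0.011 with quantile normalization again, 0.0045 with median centring, 0.041 with the mean of probe sets, −0.064 to 0.023 without 1 array), Cd93 (0.027 with quantile normalization again) and Plvap (−0.11 to 0.0020 without 1 array). The replicate numbers gave no clear pairing of the embryos. Deviations of same-numbered arrays correlated at −0.0048, 0.069, 0.26 and 0.20 at the gene level and at −0.00076, 0.12, 0.24 and 0.20 at the exon level. Not every array correlated best with its own number. So few correlations cannot settle whether same-numbered embryos shared a litter or batch. Each member had 1 cluster, so averaging a gene's clusters gave no other value.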
